A study of Zea mays with 17 samples.

Results

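Meiocytes were compared with other somatic cells in maize (Zea mays) anthers of 1.5 mm. The comparison took the 2 libraries whose column names carry the label ME at that length and the 2 libraries that carry the label OSC, which is 4 of the 17 libraries of the series. Meiocytes are the cells of the anther that go through meiosis and give rise to the pollen. ME stands for meiocytes and OSC for other somatic cells, and the labels do not say which cell layers OSC holds. The question was which genes set the germline apart from the outer somatic cells of the anther early in meiosis.

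A maize anther lobe holds a column of meiocytes wrapped in concentric somatic layers. The tapetum lies next to the meiocytes and is a secretory layer that feeds them and later supplies pollen wall material. Outside it lie the middle layer, the endothecium, which takes part in anther opening, and the epidermis, which covers the organ. Meiocytes carry out chromosome pairing and recombination, for which they use genes that most somatic cells keep silent.

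The plants were of the W23 inbred line, named W23 bz2 in the growth notes and wild type in the genotype label, and were raised in a greenhouse. All groups share that genotype, and the labels name no treatment. Cells were cut from anther sections by laser capture microdissection, and total RNA was turned into libraries with CEL-seq2, in which copying starts from the poly(A) tail, so that reads come from transcript 3′ ends. The groups used here are ME, OSC and TAP (tapetum) with 2 libraries each, and FA (fixed whole anthers) with 3 libraries at 1.5 mm and 2 at 2.0 mm. ME, OSC and TAP at 2.0 mm also had 2 libraries each. The labels do not tie a library to a plant or a capture session, so the p-values below measure the spread between libraries, which may be technical, and libraries of 1 group may share plants.

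The ME libraries held 2329806 and 2795716 counts, against 815385 and 280760 counts in the OSC libraries. Counting error alone allows up to 3 counts for a gene seen 0 times, a floor of 1.29 and 1.07 CPM (counts scaled to a fixed library total) in the ME libraries and of 3.68 and 10.7 CPM in the OSC libraries. Across 18310 genes, Pearson's r of log2 CPM was 0.759 between the ME libraries and 0.753 between the OSC libraries. Between ME and OSC libraries it ran between 0.295 and 0.332. The second ME library correlated more with the first ME library of 2.0 mm anthers (0.861) than with its own replicate. The first ME library correlated at 0.755 and 0.760 with the ME libraries of 2.0 mm anthers, about as with its replicate. The smaller OSC library set the depth limit on that side. Genes are not independent replicates, and these values only describe the libraries. The labels could not be checked against cell type markers. Of 13 meiosis, 6 tapetum and 5 small RNA pathway genes found by symbol in the reference table, 0 matched a row of the counts, because no nuclear row could be given a name.

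Meiocytes and other somatic cells differed in about 1 in 4 of the genes tested, and the calls were unequal in direction. edgeR's quasi-likelihood test called 4031 of 16940 genes (23.8%) at an adjusted p under 0.05. Of these, 1269 genes (7.49% of those tested) were higher in ME and 2762 genes (16.3%) were lower. In captured tissue, fewer cells of a type and less RNA per cell cannot be told apart, which holds for each level below. The median log2 fold change of all tested genes was -0.33 with the scaling factors used (TMM), -0.64 with library totals and -0.80 with RLE size factors, so directions are relative to that shift. Nuclear genes made up 1252 of the genes called higher (98.7%) and 2756 of those called lower (99.8%). They made up 16676 of the 16940 genes tested.

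Many of the differences were close to presence against absence. Among genes called higher in ME, 249 (19.6%) had 0 counts in both OSC libraries. Among genes called lower, 1322 (47.9%) had 0 counts in both ME libraries, although the ME libraries were the deeper ones. After every captured library was thinned to 280760 counts, the total of the smallest, the same test called 1223 genes higher and 2142 lower. Of these, 283 (23.1%) had 0 counts in both OSC libraries and 1052 (49.1%) had 0 counts in both ME libraries.

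The called differences were large in both directions. With a group at 0 counts set to 3 counts in each library, the median absolute log2 fold change was 3.58 for the 1269 genes called higher and 4.52 for the 2762 called lower. By these values, differences of 16-fold or more were found for 511 genes called higher (40.3%) and 1752 called lower (63.4%). Differences of 64-fold or more were found for 148 (11.7%) and 524 (19.0%). Genes with any count in the lower group kept their fitted value, which is not a bound. Those with 3 or fewer counts in both libraries of the lower group, 0 included, numbered 467 called higher and 1819 called lower. A biological coefficient of variation of 70.6% over the 12 captured libraries left small differences below the threshold, and these shares therefore describe called genes and not all differences.

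**Figure D1:**
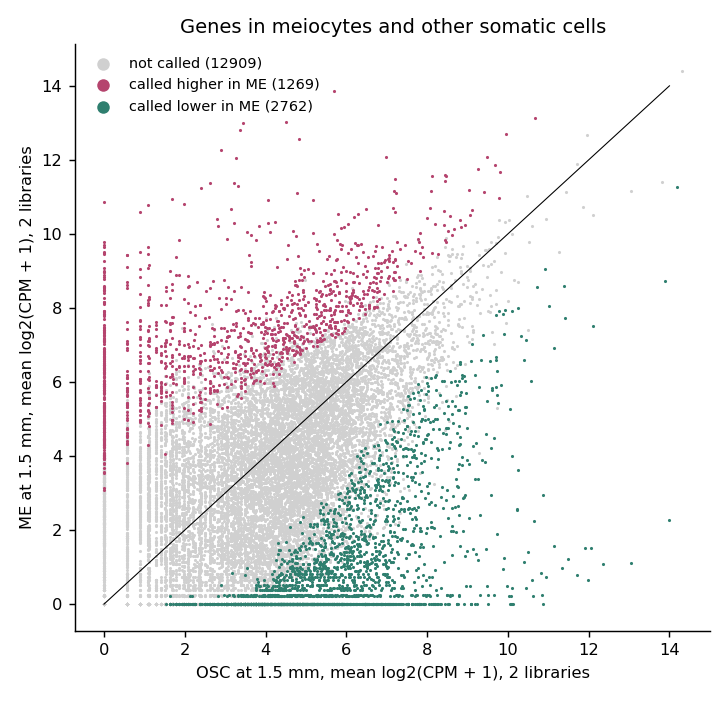
Level of each tested gene at 1.5 mm, as the mean of log2(CPM + 1) over 2 libraries, in ME (vertical axis) against OSC (horizontal axis), with a line of equal level. Coloured points are the 1269 genes called higher in ME and the 2762 called lower, and many of the points called lower lie on the line where ME held 0 counts.

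The number of calls depended on each OSC library. Without the first OSC library 1413 genes were called (409 higher in ME, 1004 lower), and without the second 1826 were (480 higher, 1346 lower). In all 4 fits that left out 1 library, 283 of the 1269 genes (22.3%) were called higher again and 873 of the 2762 (31.6%) lower again.

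ME libraries held fewer kinds of transcript than OSC libraries at equal depth. At 280760 counts the ME libraries had at least 1 count in 12094 and 12500 genes, against 16652 and 16417 genes in the OSC libraries. The means were 12297 ± 287 genes in ME and 16535 ± 166 in OSC (SD, n = 2 each), so the groups did not overlap. Both TAP libraries lay between them, at 14888 and 14021 genes, and the FA libraries ran between 16849 and 16994. With a minimum of 3 counts the values were 8657 and 8830 genes in ME and 11860 and 11700 in OSC. An exact two-sided permutation test gave p = 0.333 in either case, the smallest that 2 libraries against 2 allow. The 100 most abundant genes took 30.4% and 26.3% of the counts in ME, against 26.6% and 24.8% in OSC, where the groups overlapped.

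**Figure D2:**
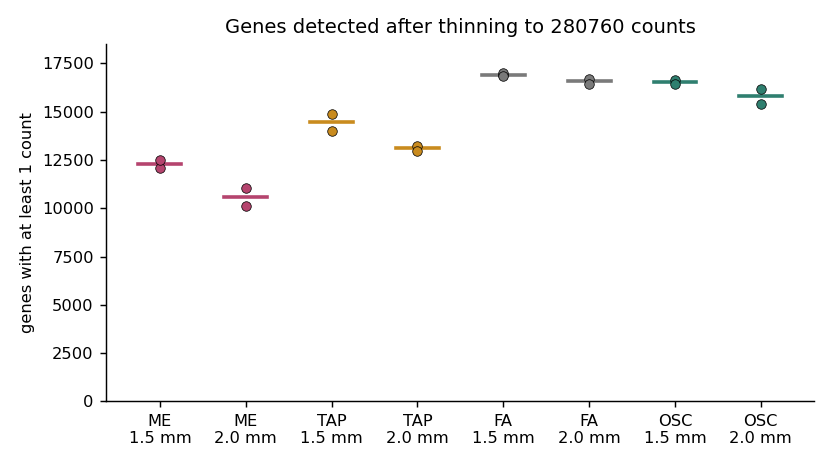
Number of genes with at least 1 count in each library after thinning to 280760 counts (vertical axis, from 0), by group and anther length. Points are libraries and bars are group means. The ME libraries of 1.5 mm anthers, at 12094 and 12500 genes, lie below the TAP, FA and OSC libraries of either length.

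The counts of the called genes were also summed in libraries outside the contrast, of which the captured ones entered the fit through the shared spread. Genes called higher in ME took 41.1% and 49.4% of the counts in the ME libraries, against 4.73% and 4.53% in the OSC libraries, which follows from the choice. At 2.0 mm, in separate libraries, the same genes took 51.2% and 51.5% of the counts in ME, against 5.96% and 6.17% in OSC. In TAP at 1.5 mm they took 10.1% and 8.73%, and in FA at 1.5 mm between 15.5% and 16.5%. Each TAP and FA library thus lay above both OSC libraries and below both ME libraries. Because the genes were chosen for their gap between these ME and OSC libraries, a place between them is no test of TAP or FA. FA is also whole anthers, which hold both kinds of cell.

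Genes called lower in ME gave the reverse order. They took 2.10% and 1.59% of the counts in the ME libraries, against 38.5% and 38.3% in the OSC libraries. At 2.0 mm they took 1.30% and 1.51% in ME, against 40.7% and 39.1% in OSC. TAP at 1.5 mm held 17.3% and 17.4%, and FA at 1.5 mm between 20.4% and 21.2%. Each TAP and FA library again lay between the ME and the OSC libraries, a place that the choice of genes favours here too.

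**Figure D3:**
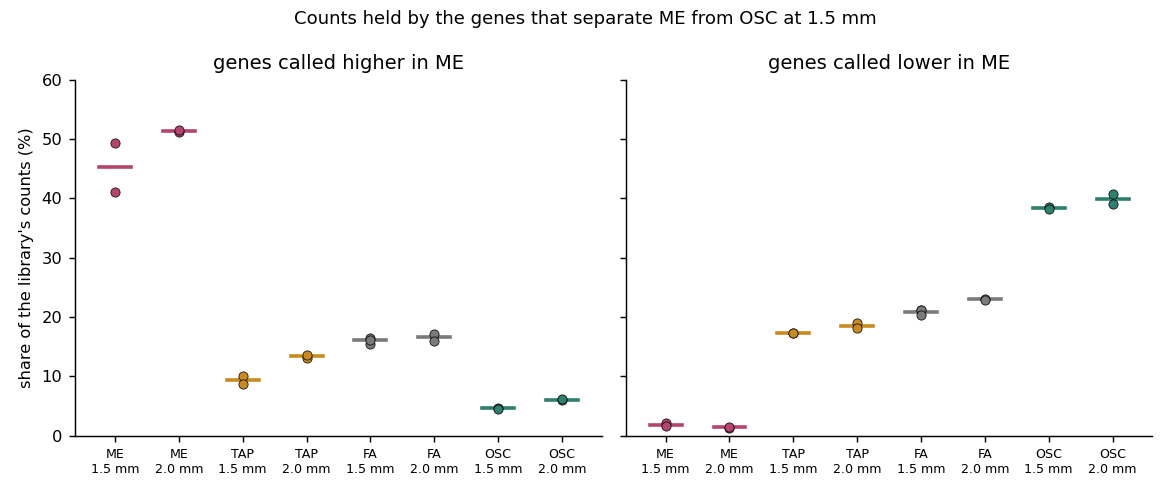
Share of each library's counts held by the 1269 genes called higher in ME (left panel) and by the 2762 genes called lower (right panel), in percent, by group and anther length. Points are libraries and bars are group means. The ME and OSC points at 1.5 mm follow from how the genes were chosen, and the 2.0 mm points lie close to them.

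Calls in either direction were most frequent among genes abundant in whole anthers. When the tested genes were ordered by their mean level in FA at 1.5 mm, libraries outside the contrast, 36 of the first 100 genes were called higher in ME and 31 lower. Of the next 900 genes, 159 (17.7%) were higher and 193 (21.4%) lower. In the following 4000 genes 479 were higher (11.98%) and 677 lower (16.93%). Among the remaining 11940 genes they were 4.98% and 15.6%, so calls higher in ME thinned out more with falling level than calls lower in ME. Low genes give the test less power, and the median lengths of the called genes were 1989 bases (higher) and 1949 bases (lower), against 2144 bases for all tested genes.

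Among the nuclear genes, 4 stand for the extremes, taken by size of change among called genes with libraries that did not overlap and whose higher group averaged 20 counts or more. They are given by identifier because the table pairs none of them with a name. Zm00001d048764 had 1551 and 2197 CPM in the ME libraries, against 0 counts in both OSC libraries. It was at least 261-fold higher in ME (edgeR's quasi-likelihood test, adjusted p = 0.000304), with a mean of 1874 ± 457 CPM there (SD, n = 2). In TAP it had 46.5 and 1.99 CPM and in FA between 202 and 223 CPM. The ME libraries were thus the highest by far and the TAP libraries lay below whole anthers. At 2.0 mm it had 2118 and 3408 CPM in ME, against 16.6 and 14.4 CPM in OSC.

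Zm00001d038424 had 375 and 2091 CPM in the ME libraries, against 0 counts in both OSC libraries. The ME replicates differed widely, and the gene was at least 172-fold higher in ME (edgeR's quasi-likelihood test, adjusted p = 0.00083). Both TAP libraries also held 0 counts, while FA held between 24.1 and 38.0 CPM. At 2.0 mm it had 2067 and 1622 CPM in ME, against 12.6 and 12.5 CPM in OSC. Neither gene was at 0 in OSC at that length.

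Zm00001d039432 had 0 counts in both ME libraries, against 1729 and 2002 CPM in the OSC libraries. It was at least 1580-fold lower in ME (edgeR's quasi-likelihood test, adjusted p = 0.00011), and OSC averaged 1865 ± 193 CPM (SD, n = 2). TAP held 18.2 and 7.97 CPM and FA between 137 and 168 CPM, so the gene was low in the layer next to the meiocytes as well. At 2.0 mm ME again had 0 counts in both libraries, against 3373 and 2166 CPM in OSC.

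Zm00001d003800 had 0 counts in both ME libraries, against 926 and 1336 CPM in the OSC libraries. It was at least 958-fold lower in ME (edgeR's quasi-likelihood test, adjusted p = 0.00011). TAP held 90.9 and 110 CPM and FA between 116 and 164 CPM, which places the tapetum between both groups. At 2.0 mm ME had 0 counts in both libraries, against 710 and 426 CPM in OSC. All 4 nuclear genes were called in every fit that left out 1 of the 4 libraries.

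Organelle genes are the only tested rows with gene names, and among them 16 mitochondrial genes were called higher in ME and 3 plastid genes lower. Plant mitochondria carry genes for part of the respiratory chain, for ATP synthase, for cytochrome c maturation and for their own ribosomes, and their genomes hold many open reading frames of unknown function. Plastids carry genes for photosynthesis and for their own gene expression. Anthers are known to be sensitive to mitochondrial function, and altered mitochondrial genomes often show as male sterility in plants. In both organelles a poly(A) tail marks RNA for decay rather than stability, so a method that primes on such tails counts a subset of their transcripts.

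Of 208 mitochondrial rows 112 were tested, and 16 (14.3%) were called higher in ME and 0 lower by edgeR's quasi-likelihood test. The background was 7.49% higher and 16.3% lower over all tested genes. The median log2 fold change of the 112 genes was 1.58, which is 1.91 above that of all tested genes, and 101 of them had a positive value, against 7576 of 16940 over all tested genes. With zero groups at their bound the median was 1.41. It was 1.33 with library totals, 1.14 with RLE factors, and between 0.72 and 2.21 when 1 of the 4 libraries was left out. Libraries did not overlap for 60 of the 112, with both ME libraries above both OSC libraries for 55 and below them for 5. Over all tested genes these shares were 22.7% above and 38.5% below.

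The called mitochondrial genes were spread over several functions. Called genes numbered 1 of 3 ribosomal RNAs, 1 of 8 ribosomal protein genes, 1 of 4 cytochrome b and cytochrome c oxidase genes, 1 of 5 ATP synthase genes, 1 of 4 cytochrome c maturation genes and 9 of 63 open reading frames. Plastid-derived sequences within the mitochondrial genome gave 2 of 10. None of the 4 complex I (nad) genes, 9 transfer RNAs or 2 genes for a maturase and a transport protein was called. Group medians of the log2 fold change ran between 0.50 (ribosomal RNAs) and 1.82 (open reading frames), all above the median of all tested genes.

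**Figure D4:**
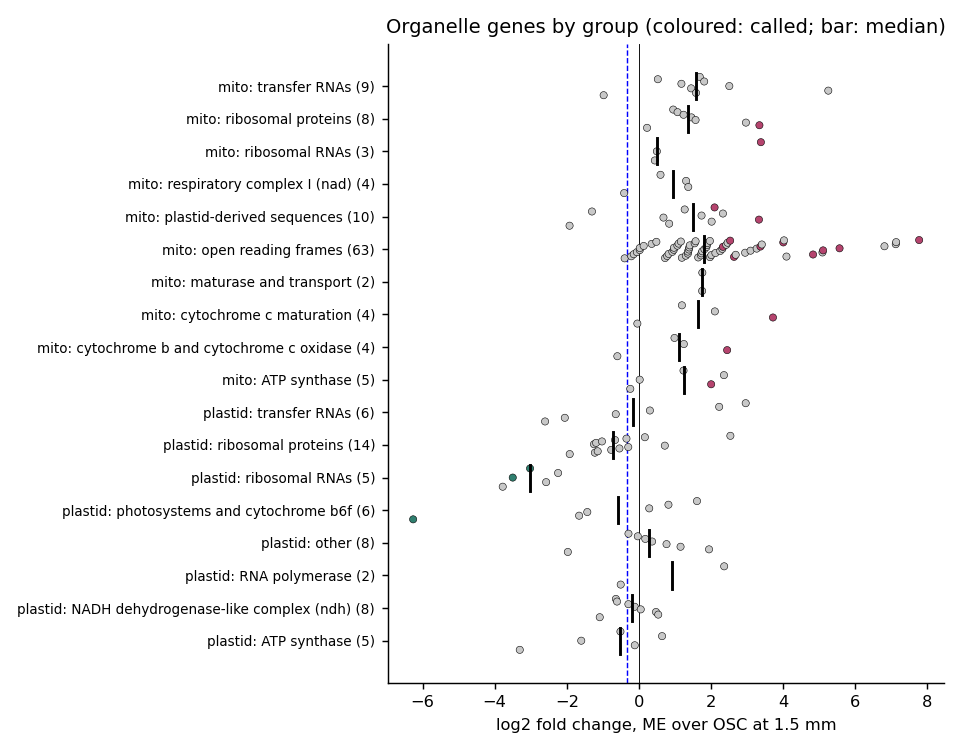
Log2 fold change of ME over OSC at 1.5 mm (horizontal axis) for each tested mitochondrial and plastid gene, by functional group with the number tested. Coloured points were called, bars are group medians, the solid line is 0 and the dashed line is the median of all tested genes, -0.33. The mitochondrial medians lie between 0.50 and 1.82, and the plastid ribosomal RNAs lie lowest at -3.02.

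The 5 mitochondrial genes named by size of change were all open reading frames of unknown function. orf149-b (ZeamMp103) had 21.9 and 10.0 CPM in ME, against 0 counts in both OSC libraries. It was at least 2.22-fold higher in ME, a low bound because the OSC libraries were shallow (edgeR's quasi-likelihood test, adjusted p = 0.0349). Its level in TAP, at 38.38 and 11.95 CPM, was as high as in ME. Under the 8 other settings orf149-b was called in 5. It missed the threshold in the same edgeR test with the replicate number as a block (adjusted p = 0.0566) and with only the 4 libraries (0.0748). Thinned counts gave no value for it. The call was lost without the first ME library and without either OSC library, with adjusted p up to 0.201.

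orf115-a2 (ZeamMp087) had 91.0 and 49.0 CPM in ME, against 2.45 and 0 CPM in OSC, where 2 counts were seen in all. The ratio of the pooled libraries was 37.3 (95% counting interval 10.3 to 309), with an adjusted p of 0.0130 in edgeR's quasi-likelihood test. orf110-b (ZeamMp053) had 76.8 and 60.8 CPM in ME, against 2.45 and 3.56 CPM in OSC, which rest on 3 counts. Its ratio was 24.9 (95% counting interval 8.44 to 121), with an adjusted p of 0.00888 in the same edgeR test. Both were low in TAP, with 2.02 and 0 CPM for orf115-a2 and 10.1 and 7.97 CPM for orf110-b. Both calls were lost without either OSC library, with adjusted p up to 0.0756 and 0.0843.

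orf114-b (ZeamMp096) had 273 and 65.1 CPM in ME, against 4.91 and 7.12 CPM in OSC, a log2 fold change of 5.11 ± 1.04 (SE; edgeR's quasi-likelihood test, adjusted p = 0.00508). orf261 (ZeamMp155) had 130 and 152 CPM in ME, against 6.13 and 17.8 CPM in OSC, a log2 fold change of 4.01 ± 0.82 (SE; edgeR's quasi-likelihood test, adjusted p = 0.00483). That the groups did not overlap in either gene follows from the rule that named them. TAP lay near the OSC level for orf114-b, at 14.1 and 15.9 CPM, and between both groups for orf261, at 70.7 and 67.7 CPM. Both calls were lost without the first OSC library, with adjusted p of 0.0581 and 0.0600.

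The other 11 called mitochondrial genes were chosen for description after their values were seen. The 5S ribosomal RNA of the mitochondrial ribosome, rrn5 (ZeamMr003), had 2789 and 1883 CPM in ME, against 277 and 267 CPM in OSC. Its log2 fold change was 3.39 ± 0.59 (SE; edgeR's quasi-likelihood test, adjusted p = 0.0021). TAP held 982 and 835 CPM and FA between 141 and 188 CPM, below every captured library of that length. Mitochondrial rows took between 1.20% and 1.83% of the counts in FA at 1.5 mm, less than in any captured library of that length. orf1159 (ZeamMp088), of unknown function, had 4070 and 1865 CPM in ME, against 300 and 399 CPM in OSC. Its log2 fold change was 3.37 ± 0.53 (SE; edgeR's quasi-likelihood test, adjusted p = 0.00118), and TAP held 353 and 281 CPM. Of the 16 called mitochondrial genes, rrn5 and orf1159 were the ones called under all 8 other settings and all 4 fits that left out a library.

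Genes for the respiratory machinery were among the called ones. cox1 (ZeamMp136), the core subunit of cytochrome c oxidase, had 1784 and 865 CPM in ME, against 267 and 324 CPM in OSC. Its log2 fold change was 2.45 ± 0.52 (SE; edgeR's quasi-likelihood test, adjusted p = 0.00574). The tapetum lay between, with 642 and 719 CPM in TAP, and the adjusted p was 0.0524 without the first OSC library. ccmC (ZeamMp069), which handles heme for cytochrome c, had 157 and 160 CPM in ME, against 22.1 and 3.56 CPM in OSC. Its log2 fold change was 3.72 ± 0.83 (SE; edgeR's quasi-likelihood test, adjusted p = 0.00748), and the adjusted p was 0.0526 without the second OSC library. TAP was nearly as high as ME, with 105 and 116 CPM. atp6 (ZeamMp182), a membrane subunit of ATP synthase, had 562 and 439 CPM in ME, against 179 and 121 CPM in OSC. Its log2 fold change was 2.01 ± 0.59 (SE; edgeR's quasi-likelihood test, adjusted p = 0.0270), and it was lost without either OSC library, with adjusted p up to 0.146. TAP, at 487 and 478 CPM, was within the range of ME. Under the 8 other settings atp6 was called in 5. It missed the threshold in the same edgeR test with RLE factors (adjusted p = 0.0697), library totals (0.0501) and only the 4 libraries (0.0504).

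Several of the remaining called mitochondrial genes may share reads with near-identical copies. rps2B (ZeamMp157), for a protein of the small ribosomal subunit, had 161 and 133 CPM in ME, against 9.81 and 28.5 CPM in OSC. Its partner rps2A had 54.94 and 25.04 CPM in ME, against 9.81 and 0 CPM in OSC, and did not pass the test (edgeR's quasi-likelihood test, adjusted p = 0.0798). rpl2-ct and rbcL-ct are plastid-derived copies inside the mitochondrial genome, so their reads may be divided with the plastid genes. rpl2-ct had 88.0 and 127 CPM in ME, against 9.81 and 17.8 CPM in OSC, and rbcL-ct had 221 and 150 CPM in ME, against 57.6 and 46.3 CPM in OSC. orf147-b, orf115-a1 and orf105-b were called with log2 fold changes between 2.33 and 2.64. orf115-a1 and orf115-a2 may be copies of each other. All 6 of these calls were lost without either OSC library, and those of rbcL-ct and the 3 open reading frames also without the first ME library. Under the 8 other settings rbcL-ct and orf105-b were called in 2, and orf115-a1 and orf147-b in 5, with RLE factors and library totals among those that lost all 4.

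**Figure D5:**
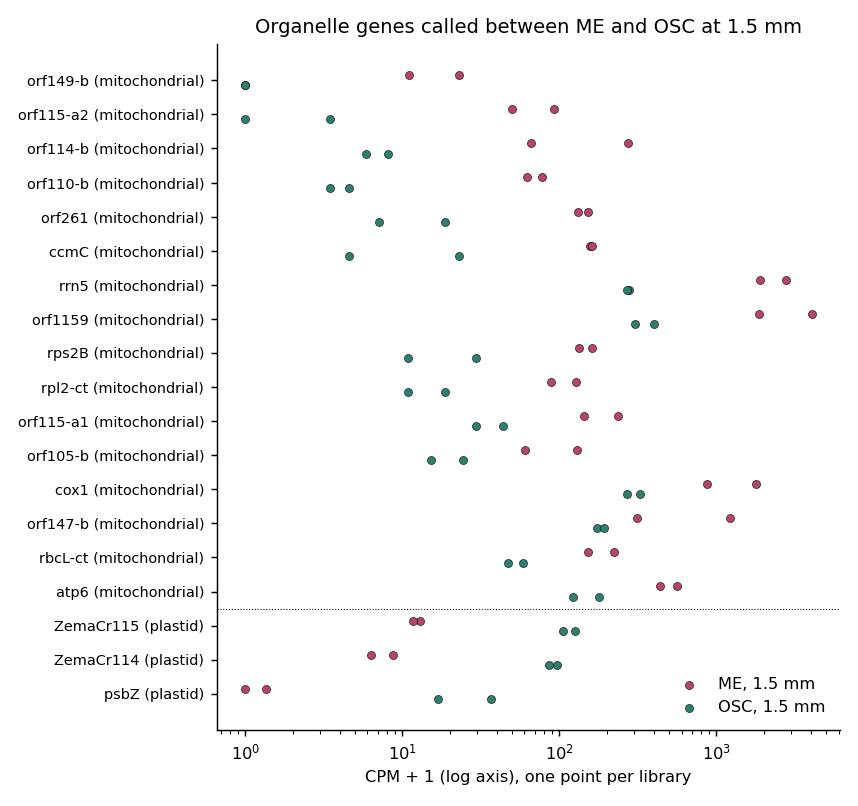
Level of each called organelle gene, as CPM + 1 on a log axis, in the 2 ME libraries and the 2 OSC libraries of 1.5 mm anthers. The 16 mitochondrial genes lie to the right in ME and the 3 plastid genes to the right in OSC. The groups do not overlap in any of them, as in 1260 of the 1269 genes called higher and 2708 of the 2762 called lower.

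Several abundant mitochondrial genes did not pass the test. The large ribosomal RNA rrn26 had 30590 and 15404 CPM in ME, against 23363 and 17357 CPM in OSC, and the small ribosomal RNA rrn18 had 6175 and 2307 CPM in ME, against 4783 and 2322 CPM in OSC. In both genes the groups overlapped. rps1, for another ribosomal protein, had 9625 and 4470 CPM in ME, against 4383 and 3694 CPM in OSC, a log2 fold change of 1.07 ± 0.49 (SE; edgeR's quasi-likelihood test, adjusted p = 0.127). nad4, a complex I gene, had 427 and 240 CPM in ME, against 581 and 488 CPM in OSC, while TAP held 2099 and 1419 CPM. The ME replicates differed in all 4 of these genes, with the first library higher.

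The mitochondrial share of all counts did not separate the groups. It was 7.404% and 3.525% in ME, against 4.06% and 3.56% in OSC, with means of 5.46 ± 2.74% in ME and 3.81 ± 0.352% in OSC (SD, n = 2 each) and an exact two-sided permutation p of 1. Without the ribosomal RNA rows it was 3.45% and 1.57% in ME, against 1.21% and 1.56% in OSC, where the second ME library lay barely above the second OSC library (exact permutation p = 0.333, the smallest possible). Of these 4 libraries the first ME library was the highest in both measures. The TAP libraries held 9.83% and 10.7% with the ribosomal RNA rows and 2.66% and 2.53% without them.

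Plastid genes were mostly not called. Of 157 plastid rows 54 were tested, and 0 were called higher and 3 lower (5.56%) by edgeR's quasi-likelihood test, against a background of 16.3% lower. Their median log2 fold change was -0.51, against -0.33 for all tested genes, and it ran between -1.90 (without the first ME library) and 0.28 (without the second) when 1 of the 4 libraries was left out. The ribosomal RNA row ZemaCr114 had 7.73 and 5.37 CPM in ME, against 95.7 and 85.5 CPM in OSC, a log2 fold change of -3.50 ± 0.92 (SE; edgeR's quasi-likelihood test, adjusted p = 0.0161). ZemaCr115, a short ribosomal RNA, had 12.02 and 10.73 CPM in ME, against 104 and 125 CPM in OSC, a log2 fold change of -3.02 ± 0.90 (SE; edgeR's quasi-likelihood test, adjusted p = 0.0274). All 5 tested plastid ribosomal RNA rows had negative values, with a median of -3.02, and other rows of this kind may be second copies that share their reads. Over all tested genes, 7576 of 16940 had a positive value.

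psbZ (ZemaCp009), for a small subunit of photosystem II, was the other plastid gene called, and it was chosen for description after its values were seen. It had 0 and 0.358 CPM in ME, where the second library held 1 count, against 15.9 and 35.6 CPM in OSC. The ratio of OSC over ME in the pooled libraries was 108 (95% counting interval 17.5 to 4430), with an adjusted p of 0.0271 in edgeR's quasi-likelihood test. Leaving out any 1 of the 4 libraries removed the calls of psbZ and ZemaCr115, with adjusted p up to 0.111 and 0.126. That of ZemaCr114 was lost without the second ME library or either OSC library, with adjusted p up to 0.0950.

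The gene groups of photosynthesis and plastid gene expression gave values on both sides of 0, with no call beyond psbZ and the ribosomal RNAs. Median log2 fold changes were -0.57 for 6 photosystem and cytochrome b6f genes, -0.51 for 5 ATP synthase genes, -0.71 for 14 ribosomal protein genes and -0.20 for 8 genes of the NADH dehydrogenase-like complex (ndh). They were -0.17 for 6 transfer RNAs, 0.93 for 2 RNA polymerase genes and 0.27 for 8 other genes. matK, which helps splice plastid RNA, had 285 and 58.7 CPM in ME, against 709 and 915 CPM in OSC, and missed the threshold (edgeR's quasi-likelihood test, adjusted p = 0.0575). The plastid share of all counts was 0.329% and 0.0994% in ME, against 0.384% and 0.415% in OSC (exact two-sided permutation p = 0.333, the smallest possible).

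Most of the 1.5 mm calls were found again in 2.0 mm anthers, in libraries that share none with those of 1.5 mm. At 2.0 mm, edgeR's quasi-likelihood test called 6246 genes (36.9%) between ME and OSC, 1516 higher in ME (8.95%) and 4730 lower (27.9%). Genes called higher at both lengths numbered 849, which is 66.9% of the list at 1.5 mm and 56.0% of that at 2.0 mm. Genes called lower at both lengths numbered 2226, or 80.6% and 47.1%. All captured groups share one estimate of spread per gene in this fit.

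At 2.0 mm the mitochondrial genes had a median log2 fold change of ME over OSC of 3.13, against -1.40 for all tested genes, and 58 of 112 (51.8%) were called higher and 1 lower. Gene by gene, a direct test of the difference between lengths, given below, called 1 of the 112. All 16 mitochondrial genes called higher at 1.5 mm were among the 58. Over all tested genes, 8.95% were called higher and 27.9% lower at 2.0 mm. The plastid genes had a median of -0.51 at 1.5 mm and 2.05 at 2.0 mm, where 13 of 54 (24.1%) were called higher in ME and 3 (5.56%) lower. ZemaCr114 was called lower in ME at both lengths and was the one plastid gene of the 3 for which this held. ZemaCr115 had a log2 fold change of 1.84 at 2.0 mm and was not called there. It had 20.5 and 69.7 CPM in ME, against 4.65 and 14.0 CPM in OSC, at that length. The mean mitochondrial share of counts in OSC was 3.81% at 1.5 mm and 1.21% at 2.0 mm, against 5.46% and 5.14% in ME. The mean plastid share in OSC was 0.399% and 0.165%, against 0.214% and 0.272% in ME. Both OSC shares were thus lower at 2.0 mm, whereas the ME shares changed less (2 libraries each).

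A direct test of whether the ME to OSC difference changed with anther length called 3 of 16940 genes (0.0177%) by edgeR's quasi-likelihood test, 1 with a more positive difference at 1.5 mm (0.0059%) and 2 with a more negative one (0.0118%). Among the 2 was rpl16 (ZeamMp057), for a mitochondrial ribosomal protein. It had 414 and 246 CPM in ME, against 167 and 121 CPM in OSC, at 1.5 mm. At 2.0 mm it had 192 and 417 CPM in ME, against 0.664 and 0.379 CPM in OSC, where each library held 1 count. The log2 fold change was 1.46 at 1.5 mm (edgeR's quasi-likelihood test, adjusted p = 0.0736) and 8.68 at 2.0 mm, a difference of -7.22 with an adjusted p of 0.0286 in that edgeR test. The call was lost without any 1 of the 4 OSC libraries of either length, with adjusted p between 0.0639 and 0.210, and with the replicate number as a block (adjusted p = 0.0501). ME was at a like level at both lengths, and OSC was the group that was lower at 2.0 mm. For no other mitochondrial and no plastid gene did the test call the difference between lengths. The count of 3 genes depended on the settings. It was 456 without a low-count filter, 393 with all 17 libraries, 321 with DESeq2 and 24 with thinned counts. With RLE factors and with library totals it was 2, and with the replicate number as a block it was 1. The few calls therefore do not show that the difference stayed the same between lengths.

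A small set of genes went opposite ways at the 2 lengths. Of the 1269 genes called higher in ME at 1.5 mm, 9 were called lower in ME at 2.0 mm, and none of the 2762 genes called lower was called higher. The difference between lengths did not pass for any of the 9 (edgeR's quasi-likelihood test, adjusted p between 0.0534 and 0.131). Summed over the 9 genes, ME had 197 and 1095 CPM, against 14.7 and 74.8 CPM in OSC, at 1.5 mm. At 2.0 mm ME had 304 and 89.4 CPM, against 1964 and 2573 CPM in OSC. TAP at 2.0 mm held 18139 and 18003 CPM, above both 1.5 mm ME libraries in 8 of the 9 genes. In 8 of the 9 genes the second ME library lay above the first.

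Some genes called higher had a far higher level in the second ME library. In 39 of the 1269 genes called higher (3.07%) its level was at least 10 times that of the first, while the reverse held for 2. Over all 16940 tested genes, many of them low, the same gaps were found for 14.9% and 9.27%. Summed over the 39 genes, ME had 606 and 14050 CPM, against 153 and 196 CPM in OSC, and TAP at 1.5 mm had 3296 and 3634 CPM. At 2.0 mm the same genes held 10714 and 3672 CPM in ME, while TAP held 36227 and 43494 CPM. Both TAP libraries of either length thus lay above the first ME library of 1.5 mm anthers. The 39 genes were chosen by the gap between the ME libraries, so fits that leave out either of them cannot test it. Tapetal marker genes could not be matched to rows, and the part of tapetal RNA in these calls was not tested.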

How the data were processed

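RNA was measured in 17 libraries, deposited by the authors as 1 table of raw counts per gene, which also gives each gene's length. Reads were handled with fastp, Trim Galore and HISAT2, per the submitters' processing notes. The build, the annotation, the counting tool, the use of molecular identifiers and the use of strand are not given in the sources used here, so genes that overlap or share reads with copies are uncertain. The counts as deposited were whole numbers with unequal totals. Columns were assigned by the group and replicate in their names.

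Gene names were looked up in RefSeq's table for Zm-B73-REFERENCE-NAM-5.0, with no coordinates taken from it. All rows of the mitochondrion (208) and plastid (157) and 153 of 154 microRNA gene rows matched by locus tag or symbol, and 0 of 44146 nuclear and 0 of 1765 non-coding rows. The lists for meiosis, tapetum, small RNA pathway, histones, ribosomal proteins, photosynthesis, cell wall, cuticle, heat shock, cytoskeleton, ubiquitin ligase and translation genes therefore had 0 matched rows. The comparison, the gene lists and the functional groups of organelle genes were chosen with earlier results of these data known.

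Genes were tested with edgeR 4.0.16 (limma 3.58.1, R 4.3.3), using the quasi-likelihood F-test with robust dispersions, TMM factors and a low-count filter by group (minimum count 10, minimum total 15) over the 12 captured libraries. Genes with a Benjamini-Hochberg adjusted p under 0.05 over all tested genes are called. Fits were tested on simulated data. Named genes were called genes with libraries that did not overlap and 20 or more counts on average in the higher group, taken by size of change: up to 5 per direction from mitochondrial, plastid and microRNA rows, and 2 per direction from rows with no name. Standard errors of genes at 0 counts in a group are not given. Bounds use 3 counts in each library, and intervals are exact (Clopper-Pearson). Both cover counting error only. Alternatives were RLE factors, library totals, no filter, DESeq2 1.42.0, the replicate number as a block, only the 4 libraries, all 17, thinned counts and leaving out each library. Shares, thinning (random seed 1) and figures used Python 3.11.15, NumPy 2.4.6, pandas 2.3.3, SciPy 1.17.1 and matplotlib 3.10.9. The smallest two-sided exact permutation p for 2 against 2 libraries is 0.333.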

Additional observations from a re-analysis of the deposited data

Results flagged for a closer look

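In 3 genes the difference between ME and OSC changed with anther length by a direct test (edgeR's quasi-likelihood test over 16940 genes). The mitochondrial gene rpl16 had a difference of -7.22 on the log2 scale (1.5 mm minus 2.0 mm, adjusted p = 0.0286), and both OSC libraries of 2.0 mm anthers held 1 count of it. Another was a nuclear gene, for which the difference was -5.19 (adjusted p = 0.0197). It had 2333 and 1870 CPM in ME, against 1522 and 1321 CPM in OSC, at 1.5 mm, and 1639 and 2330 CPM in ME, against 19.9 and 26.2 CPM in OSC, at 2.0 mm. The last was a nuclear gene with a difference of 4.71 (adjusted p = 0.0413). It had 569 and 308 CPM in ME, against 1199 and 1211 CPM in OSC, at 1.5 mm, and 38.0 and 28.6 CPM in ME, against 1363 and 1744 CPM in OSC, at 2.0 mm. In none of the 3 was the difference at 1.5 mm itself called, with adjusted p between 0.0736 and 0.157 in the same edgeR test. Each of the 3 calls was lost without any 1 of the 4 OSC libraries of either length, with adjusted p between 0.0639 and 0.295 in that test. The last gene's call was also lost without the second ME library of 2.0 mm anthers (adjusted p = 0.0595), with RLE factors (0.0708), with library totals (0.0865) and, as that of rpl16, with the replicate number as a block (0.0501).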

How the results depend on the processing

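The count of 4031 genes became 2297 (777 higher in ME, 1520 lower) with only the 4 libraries fitted and 6636 (2464 higher, 4172 lower) with all 17, and stayed within 1.5 times under the other settings that kept all libraries. Leaving out 1 library gave 1413 to 3678 genes (409 to 1453 higher, 1004 to 2256 lower). Mitochondrial genes called higher numbered 33 with all 17 libraries and 3 to 29 without 1 library. Plastid genes called lower numbered 5 with RLE factors, 8 with DESeq2, 6 with all 17 libraries (and 1 higher), 6 with thinned counts and 0 to 5 without 1 library (0 to 1 higher). Non-coding rows called lower numbered 5 with RLE factors, 5 without a filter (0 higher), 8 with DESeq2, 10 with all 17 libraries and 0 to 7 without 1 library (0 to 1 higher), and with only the 4 libraries 0 were higher. The count of 3 genes whose difference changed with length became 456 without a filter, 321 with DESeq2, 393 with all 17 libraries, 24 with thinned counts and 0 to 304 without 1 library. The difference in genes detected, -4238 (ME minus OSC), was -3037 at a minimum of 3 counts.

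With the replicate number as a block, 3279 genes were called (1066 higher, 2213 lower), and 1 in place of 3 changed with length. Deviations of same-numbered libraries correlated at r = -0.0072 over 16940 genes. With so few libraries, this value cannot show whether same-numbered libraries share a plant or a capture session. For the 19 called organelle genes and the 4 nuclear genes given by identifier, 160 of 183 values under other settings that kept all libraries stayed on their side of the threshold, 23 did not pass it and 0 changed direction. With a library left out, 52 of 92 stayed and 40 did not pass. The cause of these shifts was not tested. Tests of the gene lists were not run, because no list gene matched a row. Depth limits OSC most: in its second library, 0 counts allow a level of up to 10.7 CPM.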

Other observations

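The 154 microRNA gene rows held 0 counts in all 17 libraries. Of 1765 non-coding RNA rows, 98 were tested, and 1 was called higher in ME and 3 lower by edgeR's quasi-likelihood test (1.02% and 3.06%, against 7.49% and 16.3% of all tested genes). The row called higher, which the table does not name, had 126 and 106 CPM in ME, against 27.0 and 21.4 CPM in OSC, a log2 fold change of 2.52 ± 0.71 (SE; adjusted p = 0.0221 in that edgeR test). TAP was level with ME there, at 125 and 112 CPM. A row called lower had 101 and 50.8 CPM in ME, against 591 and 563 CPM in OSC, a log2 fold change of -2.65 ± 0.67 (SE; adjusted p = 0.0134 in that edgeR test). The other 2 rows called lower had 0 counts in both ME libraries and were at least 18.8-fold and 14.7-fold lower in ME.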
